A study of Mus musculus with 6 samples.

Results

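The genes that draw neutrophils into tissue and that drive their production were followed across mouse pancreas and tumours grown from a pair of pancreatic carcinoma cell lines. The set has 9 listed members: the chemokine ligands Cxcl1, Cxcl2, Cxcl3, Cxcl5 and Cxcl15, the chemokine receptors Cxcr1 and Cxcr2, the growth factor Csf3 (granulocyte colony-stimulating factor, G-CSF) and its receptor Csf3r. A member was taken by its symbol in either of the authors' comparison tables, which found 8 of the 9 among 16286 listed genes, while 27179 genes were counted in every sample. The tables list a gene from a summed count of 10 over their 4 libraries, so members were selected on their summed count, and the list itself was drawn up with results of these samples known. Just inside that limit was Csf3, with table counts of 10 and 10 in the UNKC tumours and 0 in normal pancreas. Just outside were Csf3 in the table of H7 tumours, with 4 reads in the tumours, and Cxcr1, with 5 reads in all 6 libraries together. The reads of Cxcr1 were taken by its gene ID, 227288.

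RNA was sequenced from 3 groups of 2 samples. Normal samples were whole pancreas of C57BL/6 mice. H7 tumours grew from PANC02-H7, an aggressive derivative of a carcinogen-induced mouse pancreatic carcinoma line, and UNKC tumours from UN-KC-6141, a line from a mouse pancreatic tumour. Cells of either line were placed by surgery into the pancreas of C57BL/6 mice, which received no treatment, and the tumours were taken 20 days later. Each tumour type thus stands for 1 cell line, each sample is bulk tissue that mixes carcinoma cells with cells of the host, and the age and sex of the mice are not stated. The labels number the replicates but do not say that they came from separate mice, so p-values measure the spread between these samples only. In bulk tissue, fewer cells of a type and less RNA per cell cannot be told apart.

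As background, neutrophils are made in the bone marrow under the control of G-CSF, which acts through the receptor encoded by Csf3r. CXC chemokines that carry the amino acids glutamate, leucine and arginine before their first cysteines bind CXCR2 on neutrophils and guide them out of the marrow and into tissue. Cxcl1, Cxcl2, Cxcl3 and Cxcl5 are such ligands and are typically induced through NF-kB by interleukin 1, TNF and interleukin 17. Cxcl15, also called lungkine, is a mouse chemokine best known from lung epithelium. In pancreatic cancer this route is known for bringing in myeloid cells that restrain T cells.

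The 5 ligand genes lie together on chromosome 5, over 146641 bases of the GRCm38 assembly, whose older name mm10 is the build in the submitters' processing notes. In chromosome order they are Cxcl5 (gene ID 20311, chr5:90759298-90761625), Cxcl3 (330122, chr5:90786101-90788093), Cxcl15 (20309, chr5:90794534-90803067), Cxcl1 (14825, chr5:90891245-90893121) and Cxcl2 (20310, chr5:90903899-90905938). Cxcr2 (12765, chr1:74153994-74161246) and Cxcr1 (chr1:74191785-74194708) are neighbours on chromosome 1. Csf3r (12986) lies at chr4:126023441-126044975 and Csf3 (12985) at chr11:98700183-98703631. All counts are over whole genes. RefSeq places an uncharacterised gene across Csf3 (Gm38985) and another across Csf3r (Gm32908), neither counted in the files.

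Promoter sequences from RefSeq (GRCm38.p6) were matched for 7 of the 9 members, all but Cxcl5 and Csf3. The 120 bases just before the start are shown for the 4 ligand genes among these. A link between these letters and the level in the tumours was not tested. All lie on the plus strand, and capitals mark matches to an NF-kB motif of 10 letters, of which 2 may be any base, or to the TATA box letters TATAAA.
Cxcl3, chr5:90785981-90786100: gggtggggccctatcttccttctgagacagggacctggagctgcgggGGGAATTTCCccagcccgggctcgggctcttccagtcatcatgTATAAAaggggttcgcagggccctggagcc
Cxcl15, chr5:90794414-90794533: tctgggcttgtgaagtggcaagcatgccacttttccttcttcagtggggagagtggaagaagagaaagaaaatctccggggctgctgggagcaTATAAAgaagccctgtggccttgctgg
Cxcl1, chr5:90891125-90891244: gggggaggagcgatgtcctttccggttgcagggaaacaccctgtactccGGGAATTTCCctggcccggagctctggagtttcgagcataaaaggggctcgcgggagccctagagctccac
Cxcl2, chr5:90903779-90903898: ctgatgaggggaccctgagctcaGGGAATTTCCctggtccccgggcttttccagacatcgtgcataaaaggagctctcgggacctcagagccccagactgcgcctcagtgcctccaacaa
The letters GGGAATTTCC began 73 bases before the start of Cxcl3, 71 before that of Cxcl1 and 97 before that of Cxcl2, always on the strand of the gene. The NF-kB motif, sought on both strands of windows of 250 bases before to 50 after the start, was in 3 of the 7 matched member promoters (Cxcl1, Cxcl2 and Cxcl3) and in 1.20% of 32851 promoter windows. TATAAA was in Cxcl3 and Cxcl15 (30 and 27 bases before the start) and in 13.6% of windows. Cxcl1 and Cxcl2 hold the letters CATAAA before their start, unmarked above, which differ from TATAAA in the first letter only and were not sought. TGANTCA, an AP-1 motif, and TTGCNNAA, a C/EBP motif, were in 0 of the 7 and in 7.81% and 10.8% of windows. No marked motif overlapped another. The 3 genes with the NF-kB motif lie in the same cluster and carry the same 10 letters, so they are not independent cases. A match is a description of letters, not of a bound site.

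The libraries held 33332516 and 36307030 (H7), 40507546 and 38728423 (UNKC) and 12077320 and 8204225 (normal) reads in genes. Values are given in CPM, reads per 1000000 of the library size after TMM scaling, and that scaled size was only 2160360 and 2095857 reads in normal pancreas against 69049499 to 90280267 in the tumours. A count of 0 over both normal libraries therefore allows up to 1.41 CPM (3 read pairs, or 6 reads), against 0.0408 CPM in H7 and 0.0342 CPM in UNKC tumours; this limit and the intervals below cover counting error only. The 8 acinar markers summed to 11251 and 10686 CPM in normal pancreas and to 3.99 to 36.1 CPM in the tumours. Skeletal muscle markers (9 genes) summed to 627 CPM in H7 replicate 2 and 2254 CPM in UNKC replicate 2 and to at most 10.7 CPM in the other 4 libraries. Without both of these libraries the differences between the tumours were 7.69 for Cxcl15, 5.65 for Cxcl3, 2.66 for Cxcl5, 2.66 for Cxcr2 and 2.12 for Csf3r on the log2 scale, in a fit too small to call any of all tested genes.

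Cxcl15, Cxcl5 and Cxcl3 were higher in H7 than in UNKC tumours, by 242, 10.1 and 43.5 times, while Cxcl1 and Cxcl2 did not pass the test. H7 tumours also held more RNA of the receptors Cxcr2 and Csf3r. In the comparison of the tumours, 8 of the 9 members passed the filter on low counts, 5 were higher in H7 and 0 lower by edgeR's quasi-likelihood test (adjusted p under 0.05 over 16306 genes), where 18.3% of all tested genes were called and 7.14% were higher in H7. As the list was drawn up with results known, the count is a description and no independent evidence.

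Cxcl15 had 7171 and 6731 reads in the H7 libraries, 45 and 24 in the UNKC libraries and 0 and 2 in normal pancreas. This was 104 and 86.4 CPM in H7, 0.498 and 0.281 CPM in UNKC and 0 and 0.954 CPM in normal tissue, so the H7 libraries stood far above all others and UNKC and normal libraries overlapped. The fitted difference between the tumours was a log2 fold change of 7.92 ± 0.55 (SE of the fit, n = 2 per group; edgeR adjusted p = 0.000412), or 242-fold. Lung epithelial genes, a list chosen after the values of Cxcl15 were seen, were near 0 in H7 tumours: Sftpa1, Scgb1a1, Scgb3a2 and Nkx2-1 had no read there, and the 6 genes summed to 0.0579 and 0.0257 CPM.

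Cxcl5, a ligand typical of epithelial cells, had 51.4 and 75.6 CPM in H7, 8.15 and 4.42 CPM in UNKC and 3.70 and 1.91 CPM in normal pancreas (8 and 4 reads). The 3 groups did not overlap, with H7 highest. Between the tumours the log2 fold change was 3.34 ± 0.38 (edgeR adjusted p = 0.00372), or 10.1-fold.

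Cxcl3 had 857 and 787 reads in H7, 22 and 23 in UNKC and none in normal pancreas. Its level was 12.4 and 10.1 CPM in H7 against 0.244 and 0.269 CPM in UNKC tumours, with no overlap (log2 fold change 5.44 ± 0.31, edgeR adjusted p = 0.00117, 43.5-fold). Transcripts of Cxcl3 and Cxcl2 share an identical run of 157 bases in the GENCODE M21 annotation, the longest between any members, and how the authors counted reads that match both is not stated. The split of reads between this pair is therefore uncertain.

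Cxcl1 and Cxcl2, the ligands usually named first in neutrophil recruitment, did not pass the test between the tumours. Cxcl1 stood at 1.20 and 1.54 CPM in H7 and at 2.61 and 2.42 CPM in UNKC, the only ligand with its higher level in UNKC libraries (log2 fold change -0.87 ± 0.44, edgeR adjusted p = 0.22). Cxcl2 stood at 0.739 and 0.988 CPM in H7 and 0.587 and 0.269 CPM in UNKC (1.01 ± 0.52, edgeR adjusted p = 0.266). For either gene the H7 and UNKC libraries did not overlap, and the difference did not pass the test.

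**Figure D1:**
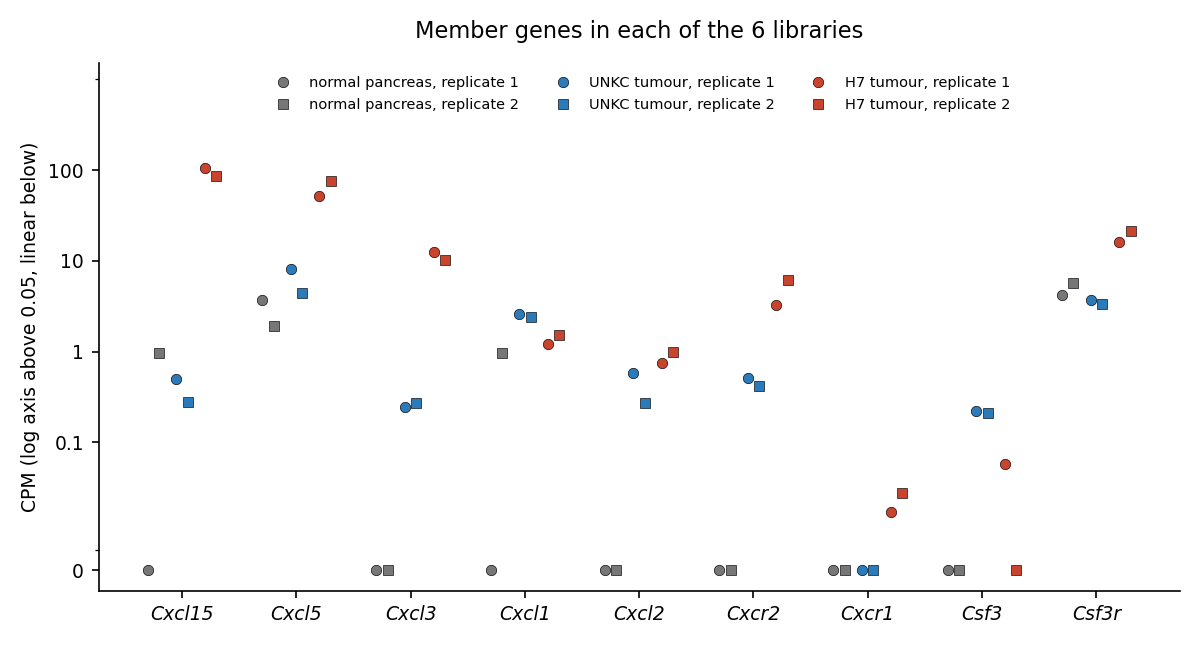
CPM of each member in the 6 libraries, on an axis that is logarithmic above 0.05 and linear below; circles are replicate 1 and squares replicate 2 of normal pancreas (grey), UNKC tumours (blue) and H7 tumours (red). The H7 points of Cxcl15, Cxcl5, Cxcl3, Cxcr2 and Csf3r lie above all other points of those genes, while Cxcl1 and Csf3 are highest in UNKC tumours.

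Along the chromosome the ligands with high levels in H7 tumours were not all neighbours. Cxcl3 and Cxcl15, 6440 bases apart, were both high there, whereas Cxcl1 and Cxcl2, 88177 bases and more beyond Cxcl15, were not. Between Cxcl5 and Cxcl3 lie the platelet chemokines Ppbp and Pf4. Ppbp had 0.170 ± 0.00489 CPM in H7 and 0.250 ± 0.0224 CPM in UNKC tumours (SD, n = 2), and Pf4 had 3.54 ± 0.850 and 5.05 ± 0.778 CPM. Neither differed between the tumours by edgeR (log2 fold change -0.55 ± 0.49 with adjusted p = 0.515 for Ppbp, and -0.51 ± 0.30 with adjusted p = 0.316 for Pf4). The genes counted on either side of the cluster were Rassf6, lower in H7 (-2.27 ± 0.29, edgeR adjusted p = 0.00522), and Mthfd2l (-0.01 ± 0.23, adjusted p = 0.989). High levels thus came from 3 of the 7 chemokine genes of the cluster, with 2 low ones lying between them.

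**Figure D2:**
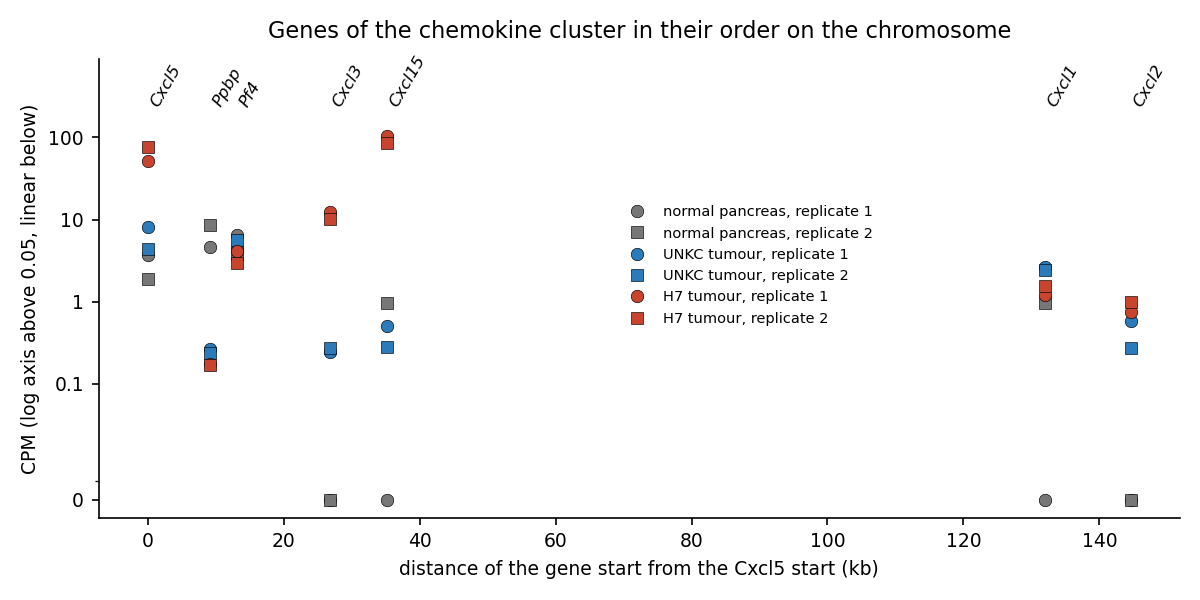
CPM of the 7 chemokine genes of the cluster (axis logarithmic above 0.05, linear below) against the distance of each gene's start from that of Cxcl5 in kb; colours and symbols stand for groups and replicates. H7 points reach 51.4 CPM or more at Cxcl5 and Cxcl15 and 10.1 CPM or more at Cxcl3, and lie at or below the UNKC points at Ppbp, Pf4 and Cxcl1.

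Per base of gene length, which allows genes to be compared, the ligand mix differed between the tumours. In H7 tumours Cxcl15 (44.7 ± 5.80 CPM per kb, SD, n = 2) and Cxcl5 (38.4 ± 10.4) led, did not differ beyond their spread, and were followed by Cxcl3 (11.1 ± 1.61), Cxcl1 (1.44 ± 0.251) and Cxcl2 (0.797 ± 0.163). In UNKC tumours Cxcl5 (3.80 ± 1.60 CPM per kb) and Cxcl1 (2.64 ± 0.141) led and were within their spread, ahead of Cxcl2 (0.395 ± 0.207), Cxcl3 (0.253 ± 0.0179) and Cxcl15 (0.183 ± 0.0723), which could not be ranked. The 5 ligands summed to 94.1 and 98.8 CPM per kb in H7 and 8.68 and 5.85 in UNKC tumours. Cxcl15 made up 51.9% and 41.1% of that sum in H7 and 2.70% and 2.26% in UNKC, and Cxcl1 1.34% and 1.63% against 31.5% and 43.4%. In normal pancreas the sums, 2.24 and 2.60 CPM per kb, rest on 16 reads in all and give no mix.

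**Figure D3:**
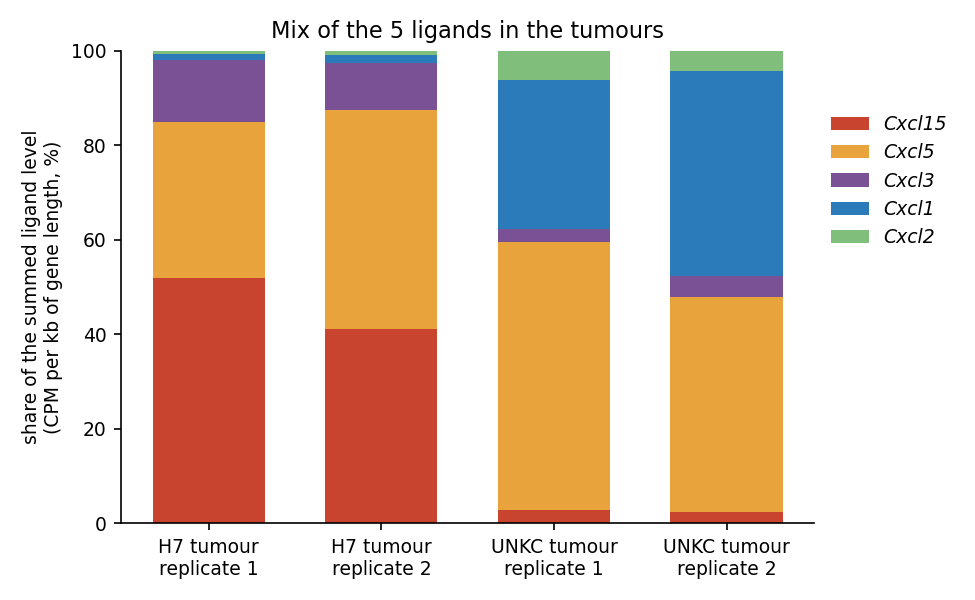
Share of each ligand in the summed level of the 5 ligands (CPM per kb of gene length, in percent) for each tumour library. Cxcl15 and Cxcl5 fill most of both H7 bars, and Cxcl5 and Cxcl1 most of both UNKC bars.

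Of the receptors, Cxcr2 is the one through which neutrophils sense the products of Cxcl1, Cxcl2, Cxcl3 and Cxcl5. It had 223 and 473 reads in H7, 46 and 36 in UNKC and none in normal pancreas. Its level was 3.23 and 6.07 CPM in H7 against 0.510 and 0.422 CPM in UNKC tumours, without overlap (log2 fold change 3.31 ± 0.45, edgeR adjusted p = 0.0101, 9.95-fold). This call was lost without H7 replicate 1 (3.72, adjusted p = 0.0512), without H7 replicate 2 (2.79, adjusted p = 0.0632) and without UNKC replicate 1 (3.46, adjusted p = 0.0631). For Cxcr2 the reads of the sample files were 1.41 to 1.64 times the counts of the authors' tables, against 1.80 to 2.12 times for the other members. Cxcr1, the related receptor, had 2 and 3 reads in the H7 libraries and none elsewhere, which is too few for a fold or a test.

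Csf3r, the receptor gene of G-CSF, had 16.2 and 21.1 CPM in H7, 3.72 and 3.34 CPM in UNKC and 4.17 and 5.73 CPM in normal pancreas. The H7 libraries stood above all others (log2 fold change 2.40 ± 0.23 over UNKC, edgeR adjusted p = 0.00215, 5.28-fold). Its ligand gene Csf3 followed no such pattern: it had 4 and 0 reads in H7, 20 and 18 in UNKC and none in normal pancreas. This is 0.0290 ± 0.0410 CPM in H7 and 0.216 ± 0.00760 CPM in UNKC tumours (SD, n = 2). The fold of H7 over UNKC was 0.126 with a counting interval of 0.0142 to 0.522 (95%, exact binomial, on read pairs), and the gene did not pass edgeR's test (adjusted p = 0.118).

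**Figure D4:**
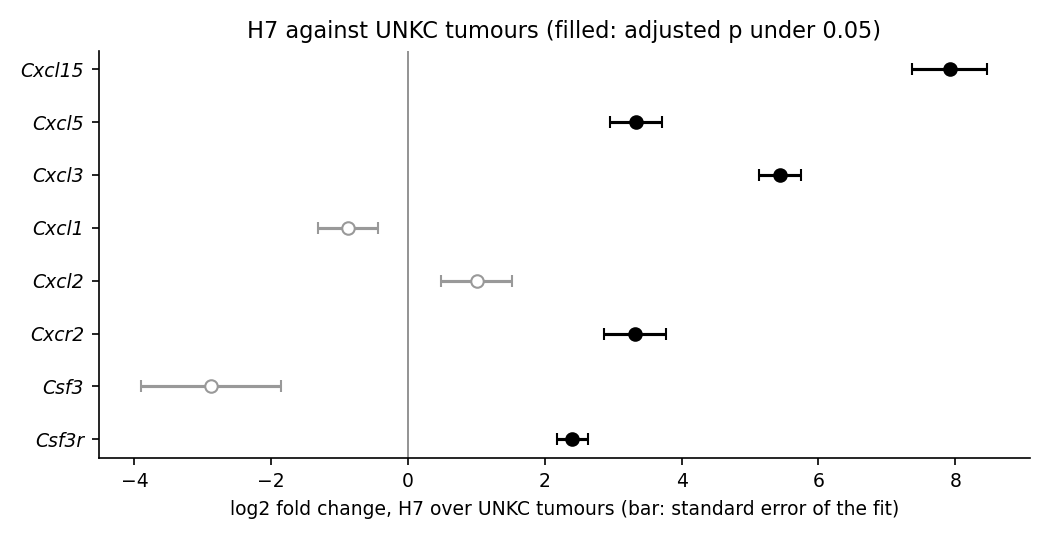
Fitted log2 fold change of H7 over UNKC tumours for the 8 members that passed the filter on low counts, with the standard error of the fit as bars; filled points have an edgeR adjusted p under 0.05. Cxcl15 lies farthest right at 7.92, and Cxcl1 and Csf3 lie left of 0 as open points.

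The 13 neutrophil markers other than Cxcr2 summed to 22.4 and 35.2 CPM in H7, 16.4 and 16.6 CPM in UNKC and 13.4 and 29.6 CPM in normal pancreas. The sums of H7 and normal libraries overlapped, but the normal sums rest on few reads. In normal pancreas 6 of the 13 markers had no read, and S100a8 had 1 and 21 reads. The overlap therefore does not show that the levels were alike. By edgeR 3 of the 10 tested markers were higher in H7 than in normal pancreas (Trem1, Il1r2 and Acod1) and Cd177 was lower, where 29.6% and 21.9% of all tested genes were. Trem1 and Il1r2 had no read in normal pancreas and Acod1 had 2 and 0, so these passed the filter through the tumours alone. Trem1 (1.46 and 2.21 CPM in H7) and Il1r2 (1.61 and 2.22 CPM) lay only a little above the limit of 1.41 CPM in normal pancreas. Ly6g, the classical surface marker, had 0 and 1 reads in H7, 2 and 6 in UNKC and none in normal pancreas, and G0s2 had none anywhere. Between the tumours 2 of the 10 tested markers were higher in H7 (S100a9, a calprotectin subunit, and Hdc, which makes histamine) and 0 lower by edgeR, where 7.14% of all tested genes were higher and 11.1% lower. Of the 7 genes of precursor granules Ngp was lower in H7 and 0 were higher. Macrophage and monocyte markers (12 genes) summed to 1101 and 932 CPM in H7, 570 and 556 CPM in UNKC and 121 and 230 CPM in normal pancreas. Against the same shares of all genes, Csf1r, C1qa and C1qc were higher in H7 than in UNKC tumours and Cd14 lower. The part of these cells in the levels of Cxcr2 and Csf3r was not tested.

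**Figure D5:**
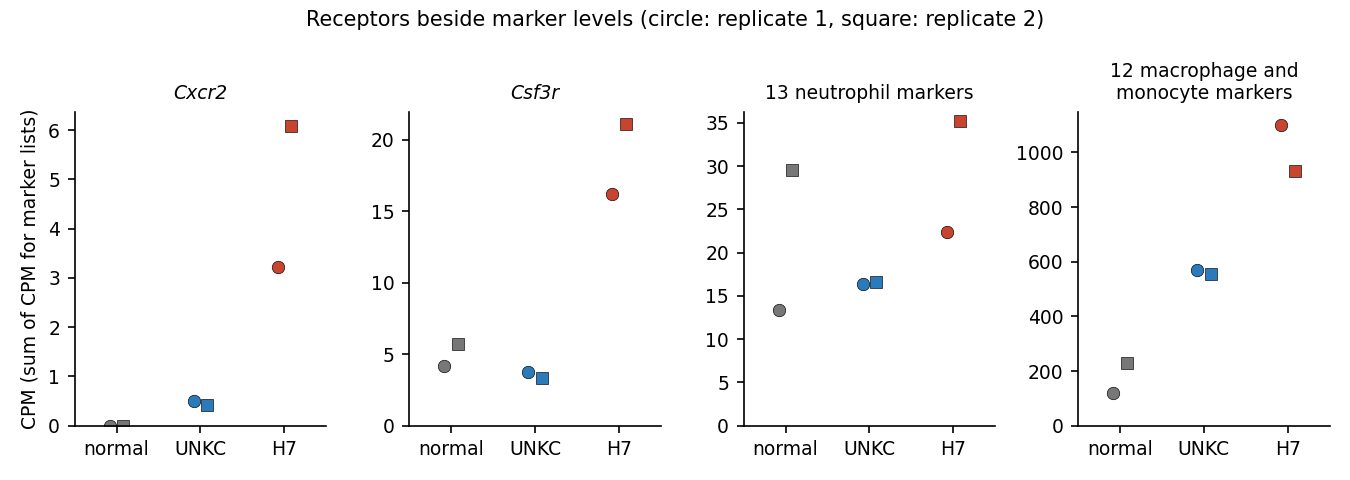
CPM of Cxcr2 and Csf3r and summed CPM of 13 neutrophil markers and of 12 macrophage and monocyte markers, 1 point per library, on linear axes from 0. The receptors are highest in H7 tumours and the macrophage sum is lowest in normal pancreas. The neutrophil sum of H7 replicate 1 lies below that of normal replicate 2, which rests on few reads.

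Against normal pancreas, H7 tumours held more of the same 5 members. Of the 8 that passed the filter, 5 were higher and 0 lower by edgeR, where 51.5% of all tested genes were called and 29.6% were higher. Of the 8, 4 had no read in normal pancreas, and Cxcl1 and Cxcl15 had 0 and 2 reads there. All of these passed the filter through the tumours alone. Cxcl5 rose by a log2 fold change of 4.49 ± 0.49 (edgeR adjusted p = 0.000818) and Csf3r by 1.92 ± 0.28 (adjusted p = 0.00231). Cxcl15 rose 201-fold with a counting interval of 36.1 to 7953, since normal pancreas held 1 read pair (edgeR adjusted p = 0.000234). Cxcl3 was at least 7.94-fold higher (adjusted p = 0.000967) and Cxcr2 at least 3.36-fold higher (adjusted p = 0.013), both against the limit that no read in normal pancreas allows. Cxcl1 was 2.94 times its normal level with a counting interval of 0.519 to 118 and did not pass (edgeR adjusted p = 0.272). Cxcl2, at 0.863 ± 0.177 CPM (SD, n = 2) in H7, lay under the limit of 1.41 CPM in normal pancreas, so a difference was not detectable at this depth (edgeR adjusted p = 0.148). In the authors' deposited table the log2 fold changes of the called genes were 7.03 for Cxcl15, 5.50 for Cxcl3, 4.15 for Cxcl5, 4.09 for Cxcr2 and 1.67 for Csf3r.

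No member passed the test between UNKC tumours and normal pancreas. Of the 8 members that passed the filter, 0 were called by edgeR, while 48.5% of all tested genes were called and 29.1% were higher in UNKC. DESeq2 called 0 of them and 9253 of all genes. In edgeR 1 member had an unadjusted p under 0.05 (Cxcl1), a limit for which the share of all genes was not determined. Cxcl1 was at 2.52 ± 0.134 CPM against 0.477 ± 0.675 CPM (SD, n = 2), a 5.37-fold difference with a counting interval of 0.955 to 213 (edgeR adjusted p = 0.083). Cxcl5 stood at 6.28 ± 2.64 against 2.81 ± 1.27 CPM (log2 fold change 1.16 ± 0.51, adjusted p = 0.113) and was called without UNKC replicate 2 (1.56, adjusted p = 0.0415). Csf3r stood at 3.53 ± 0.272 against 4.95 ± 1.10 CPM (-0.48 ± 0.29, adjusted p = 0.22). Cxcl2, Cxcl3, Cxcr2 and Csf3 had no read in normal pancreas and from 0.216 to 0.466 CPM in UNKC tumours, under the limit that this allows. The comparisons of H7 and UNKC tumours with normal pancreas share the normal libraries, so they are not independent of each other.

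Beyond the members, 72 genes of the same route were followed in 8 lists, of which 68 passed the filter on low counts. Between the tumours 10 were higher in H7 and 4 lower, where 7.14% of all tested genes were higher and 11.1% lower. Set against normal pancreas, 33 rose and 6 fell in H7 tumours, where 29.6% and 21.9% of all genes did. In UNKC tumours 30 rose and 7 fell, where 29.1% and 19.3% of all genes did.

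Among 5 decoy and scavenging receptors, Ackr3, which takes up CXCL12, was higher in H7 than in UNKC tumours, at 107.5 ± 3.78 against 13.6 ± 1.24 CPM (log2 fold change 2.98 ± 0.17, edgeR adjusted p = 0.00067). Ackr2, a scavenger of inflammatory CC chemokines named here after its value was seen, was lower (-2.36 ± 0.60, adjusted p = 0.0432). The list median was -0.77, against -0.02 over all tested genes. Normal pancreas had 4.69 ± 1.23 CPM of Ackr3, and Ackr3 was the only gene of this list that edgeR called against it, higher in both tumours. DESeq2 called 2 of the 5 in H7 and 1 in UNKC tumours, where it called 9937 and 9253 of all genes.

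Of the 7 other myeloid growth factors and receptors, Csf1, a macrophage growth factor, and its receptor Csf1r, also among the macrophage markers, were higher in H7 than in UNKC tumours. Csf1 stood at 74.3 ± 8.15 against 19.8 ± 1.14 CPM (1.91 ± 0.15, edgeR adjusted p = 0.00132) and Csf1r at 137 ± 17.4 against 54.7 ± 1.57 CPM (1.32 ± 0.22, adjusted p = 0.0113). Csf2, which encodes GM-CSF and was named after its value was seen, went the other way: it had 2 and 3 reads in H7 and 84 and 73 in UNKC libraries, a fold of 0.0381 with a counting interval of 0.00365 to 0.115 (edgeR adjusted p = 0.00505). Csf2 and Csf3 thus both had their higher reads in UNKC tumours, of which Csf2 passed the test. The list median was 0.53. Against normal pancreas 5 of the 7 were higher in H7 and 3 in UNKC tumours, and 0 lower, with Csf2rb, the shared chain of the GM-CSF receptor, at 15.3 ± 0.682 CPM in H7, 14.4 ± 1.67 CPM in UNKC and 6.85 ± 3.80 CPM in normal tissue.

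Of the 14 inducers of the chemokines and of G-CSF, 11 passed the filter and Il17rc, a chain of the interleukin 17 receptor, alone differed between the tumours (1.04 ± 0.15 higher in H7, edgeR adjusted p = 0.00691; list median 0.23). Il17a and Il17f, named after their values were seen, had no read in either tumour. Il1b, which encodes interleukin 1 beta, stood at 14.6 ± 0.0492 CPM in H7 and 11.5 ± 1.30 CPM in UNKC tumours and at 1.40 ± 1.30 CPM in normal pancreas. It was 10.3-fold higher in H7 (counting interval 3.53 to 50.2, edgeR adjusted p = 0.00169) and 8.18-fold higher in UNKC tumours (2.79 to 39.7, adjusted p = 0.0028) than in normal pancreas. Traf3ip2, the adaptor of the interleukin 17 receptor, was lower than normal in both (-1.07 ± 0.21 with edgeR adjusted p = 0.0073 in H7, and -1.54 ± 0.21 with adjusted p = 0.00205 in UNKC). It had 60 and 43 reads in normal pancreas, 821 and 867 in H7 and 806 and 656 in UNKC libraries, so this direction rests on the TMM scaling.

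Of 9 regulators of chemokine transcription and mRNA stability, Cebpb, a transcription factor of inflammatory genes, was higher in H7 than in UNKC tumours (35.2 ± 1.51 against 19.4 ± 1.21 CPM, log2 fold change 0.86 ± 0.17, edgeR adjusted p = 0.0211). Nfkbiz, a nuclear cofactor of NF-kB, was lower (20.8 ± 5.13 against 40.5 ± 2.58 CPM, -0.96 ± 0.24, adjusted p = 0.0423). The list median was 0.07. Against normal pancreas Cebpb rose by 3.32 ± 0.23 in H7 and 2.46 ± 0.23 in UNKC tumours, and Elavl1, which stabilises such mRNAs, by 2.54 ± 0.31 and 2.34 ± 0.30 (edgeR adjusted p from 0.000212 to 0.00162).

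Of the 10 tested genes of signalling from the G-CSF receptor 0 differed between the tumours by edgeR, and 3 had an unadjusted p under 0.05. DESeq2 called 3 of these genes and 5210 of all genes. The list median was -0.19. The kinase Jak1, its most abundant gene in UNKC tumours, stood at 98.6 ± 8.29 CPM in H7 and 118 ± 1.68 CPM in UNKC tumours (SD, n = 2; -0.26 ± 0.17, edgeR adjusted p = 0.358). Socs3, the feedback inhibitor of this receptor, stood at 26.2 ± 0.474 CPM in H7, 29.9 ± 4.27 CPM in UNKC and 1.43 ± 2.02 CPM in normal pancreas, and was 18.6-fold (counting interval 6.35 to 90.2, edgeR adjusted p = 0.00339) and 21.1-fold higher (7.23 to 103, adjusted p = 0.00298) in the tumours. Gfi1, a repressor needed in neutrophil precursors, fell by 5.61 on the log2 scale in H7 and by 4.71 in UNKC tumours, from 11.7 ± 0.413 CPM in normal pancreas (edgeR adjusted p = 0.000298 and 0.000439). Which cells of normal pancreas held Gfi1 RNA was not tested.

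Of 12 genes of signalling from CXCR2, 3 were higher in H7 than in UNKC tumours and 0 lower by edgeR (list median 0.36). Among them were Pik3cg, the catalytic subunit of PI3 kinase gamma (14.7 ± 0.969 against 7.26 ± 0.479 CPM, log2 fold change 1.02 ± 0.21, edgeR adjusted p = 0.0256), and the arrestin Arrb2 (0.82 ± 0.17, adjusted p = 0.0246). Macrophages express Pik3cg as well. Arrb2 was lower in both tumours than in normal pancreas (-1.06 ± 0.18 and -1.88 ± 0.18, edgeR adjusted p = 0.00398 and 0.000579). With 113 and 84 reads in normal pancreas, 1603 and 1653 in H7 and 1089 and 1116 in UNKC libraries, this direction too rests on the TMM scaling.

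Of 12 other neutrophil attractants and their receptors, Cxcr4 and Lta4h, an enzyme that makes leukotriene B4, were higher in H7 than in UNKC tumours. Cxcr4, the receptor that holds neutrophils in the marrow, stood at 12.7 and 13.3 CPM against 5.42 and 6.46 CPM (1.13 ± 0.19, edgeR adjusted p = 0.0122). Its ligand gene Cxcl12 was lower in H7, at 0.831 ± 0.458 against 5.93 ± 4.11 CPM (-2.82 ± 0.72, adjusted p = 0.0457), and at 16.1 ± 10.6 CPM in normal pancreas. Ccr1, a receptor of CC chemokines on neutrophils and macrophages, was higher in both tumours than in normal tissue (3.21 ± 0.47 with edgeR adjusted p = 0.00241 in H7, and 2.22 ± 0.48 with adjusted p = 0.0107 in UNKC). The list median between the tumours was 0.25.

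The genes most like the members in pattern were sought among 10993 tested genes with at least 5 CPM in a group, by the root mean square difference of log2 CPM over the 6 libraries after each gene's mean was taken off. Nearest to Cxcl5 were Mbnl3, Ackr3 and Isg15 (0.34, 0.40 and 0.41). Nearest to Cxcl3 were P3h2, Cilp2 and the unnamed gene model Gm20744 (0.41, 0.45 and 0.58), and among the nearest to Csf3r were Fmn1 and Plcg2 (0.22 and 0.24). Nearest to Cxcl15 were Brinp3, Sox21 and Foxf1, farther off at 1.06, 1.29 and 1.39. Cxcl15 had 0 and 2 reads in the shallow normal libraries, where so few reads weigh heavily on log2 CPM. These 3 genes likewise had 0 CPM in normal replicate 1 and 0.954 to 1.91 CPM in normal replicate 2. How much of these distances comes from the normal libraries was not tested. Brinp3 had 60.8 and 59.8 CPM in H7 and 0.476 and 1.72 CPM in UNKC tumours. With 3 groups of 2 libraries many genes share such a pattern, and the distances are a description.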

How the data were processed

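Per the submitters' processing notes, STAR, featureCounts and DESeq2 1.18.1 and the build mm10 were used; parameters and annotation are not given in the sources used here. As deposited by the authors, the sample files hold raw read counts per gene ID, and the authors' 2 comparison tables hold counts, TPM and gene length, with log2 fold changes, p-values and adjusted p-values. Sample counts were about 2 times the table counts (median 1.98 to 2.00), as if both mates of a pair were counted. After filterByExpr, 16306 genes remained. TMM scaling gave factors of 0.179 and 0.256 in normal pancreas and 2.07 to 2.23 in tumours, and all 6 libraries entered 1 fit of edgeR 4.0.16 (glmQLFit and glmQLFTest, R 4.3.3), with p-values adjusted by Benjamini-Hochberg across the whole table and called under 0.05. DESeq2 1.42.0 was an alternative. Folds with 1 to 3 read pairs in a group have exact binomial intervals. The pipeline was tested on simulated data. Levels per length use the authors' gene length. Every member is named; of each pathway list, the text draws on the 2 called genes that rose most and the 2 that fell most, if one of the groups compared reached 5 CPM, and any other gene is marked as chosen after its values were seen. Members, lists and tests were chosen with earlier results of these data known. The depth and its limits are given in the results. Some genes that this rule selects are not reported here.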

Additional observations from a re-analysis of the deposited data

Results flagged for a closer look

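For 5 members the change from normal pancreas differed between H7 and UNKC tumours, by the edgeR test of the difference itself, which is the comparison of the tumours. On the log2 scale the effect in H7 exceeded that in UNKC tumours by 7.92 for Cxcl15, 5.44 for Cxcl3, 3.34 for Cxcl5, 3.31 for Cxcr2 and 2.40 for Csf3r. Between the tumours 7.14% of all tested genes were called higher in H7. The H7 and UNKC libraries also did not overlap for members that were not called, such as Cxcl1 and Cxcl2, so that separation adds no support for these 5. How many of all genes separate in this way was not determined. Groups of 2 libraries are too small for a check of single outlying samples.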

How the results depend on the processing

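The 5 calls between H7 tumours and normal pancreas (Cxcl3, Cxcl5, Cxcl15, Cxcr2 and Csf3r) were kept under 15 other settings (scaling, filter, tool, samples in the fit, replicate block, counts used, and leaving out 1 library), with 5 to 7 members called. Between the tumours the same 5 were called in each setting that kept both libraries of the groups compared. Of all genes, 2142 (total counts) to 5210 (DESeq2) were called there. For H7 tumours against normal pancreas, such settings called 6650 (the authors' table counts) to 13233 (total counts) of all genes. With 1 library left out, the call of Cxcr2 between the tumours was lost in some fits. Scaling by total counts moved the median of all genes against normal pancreas from 0.34 to 3.61 (H7) and from 0.42 to 3.77 (UNKC). With it 7 members were called higher in UNKC and 7 in H7 tumours. Of 16306 genes, 13810 (UNKC) and 13233 (H7) were then called in either direction, so most genes were. In UNKC tumours against normal pancreas Cxcl15 (3.05) and Csf3r (2.87) turned upward, both less than the median of 3.77. Leaving out 1 library each time left 1 sample in a group. The number of all genes called then changed as well, so counts of members called are not weighed there. In UNKC tumours against normal pancreas the log2 fold change of Cxcl1 was 10.35 without normal replicate 2. That of Cxcl5 was 1.56 without UNKC replicate 2. A fit without both tumour libraries of replicate 2, which hold skeletal muscle reads, was added after seeing the data; it called 0 members in each comparison and 0 of all genes, since only the normal pair was left to estimate the spread; lone samples are assumed to vary like the others. Its log2 fold changes between the tumours were 7.69 for Cxcl15, 5.65 for Cxcl3, 2.66 for Cxcl5, 2.66 for Cxcr2 and 2.12 for Csf3r. With the replicate number as a block the counts were 5, 0 and 5 as without it. Same-numbered libraries deviated together only between the tumours (r = 0.53 across 16306 genes, against -0.01 and -0.02 with normal pancreas), and the labels do not pair them. Of 367 values of single members under the alternatives, 338 did not change sign or side of the threshold (among them Csf3 in H7 against normal pancreas without H7 replicate 1, at 0 as no read was left), 10 gained and 13 lost a call, and 6 changed sign. Besides those with total counts, these were values that passed no test: Csf3 in H7 against normal pancreas with DESeq2 (-1.75), and Cxcl15 in UNKC against normal pancreas without normal replicate 2 (7.67), without UNKC replicate 2 (0.11) and without both tumour libraries of replicate 2 (0.067). Leaving out 1 library each time gave Cxcl15 values from -1.26 to 7.67 there. The shallow normal libraries limit every statement on members under 1.41 CPM.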
